A study of Rattus norvegicus with 4 samples.

Results

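The regions described here are 467 bins of 1 kb in the rat genome where Hdac3 was enriched in differentiating oligodendrocytes and where p300 tags were also high. They were 55.9% of 835 Hdac3 sites called in that library, which in turn were 0.0326% of 2558170 bins on chromosomes 1 to 20. A site was called where the Hdac3 d3 count reached 3 times its background with a Poisson upper tail under 1e-05, and it was kept where the p300 count of both stages together reached 2 times its own background. Background was the largest of the mean over all bins, the mean of the nearest 10 bins and the mean of the nearest 50 bins, with the bin itself left out. Hdac3 d3 tags and the p300 sum therefore chose the sites, and their values below are descriptions. The Hdac3 library from precursor cells took no part in the choice.

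The cells were primary oligodendrocyte precursor cells (OPCs) of Sprague Dawley rats, prepared by differential detachment from cortices of pups at postnatal day 2. The libraries titled OPC are from these cells, and those titled d3 are from oligodendrocytes in the course of differentiation. PDGF-AA (10 ng/ml) and bFGF (20 ng/ml) were the mitogens of the growth medium, while the differentiation medium was supplied with thyroid hormone T3 (15 nM) plus ciliary neurotrophic factor (10 ng/ml). No genetic change is named for any group. Each of the 4 groups (Hdac3 OPC, Hdac3 d3, p300 OPC, p300 d3) held 1 chromatin immunoprecipitation sequencing (ChIP-seq) library, so nothing below can be set against a spread between cultures and no test between groups was made. Intervals are exact 95% intervals for counting error only. ChIP tags hold no expression level, so the cell type labels could not be checked against marker genes, and no input library was used here.

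Hdac3 is a histone deacetylase, the catalytic subunit of the NCoR and SMRT corepressor complexes, and is known for taking acetyl groups off histone tails. The acetyltransferase p300 does the opposite, and is known as a coactivator found at active enhancers and promoters. In the oligodendrocyte lineage, genes of the precursor state are switched off and myelin genes switched on during differentiation, which makes the places where a deacetylase and an acetyltransferase meet of interest, and the series title names their interaction as its subject. Positions are in build rn4. The only gene positions at hand belong to another assembly, so genes, exons and promoters near the sites are not named, and no sequence is printed.

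Reads with a score of at least 80 were used, 3025850 for Hdac3 OPC, 6421863 for Hdac3 d3, 2607428 for p300 OPC and 3564091 for p300 d3. A bin held on average 1.18, 2.51, 1.02 and 1.39 of these tags. At such depth a single site rests on few tags. The median site with p300 signal held 3 Hdac3 tags in OPCs, 18 at d3, 5 p300 tags in OPCs and 6 at d3. Statements on the sites as a set, which held 2943, 10509, 2785 and 3829 tags in the same order, are accordingly firmer than those on single sites.

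The p300 limit cut through a continuous range rather than between separate groups. Over the 835 Hdac3 d3 sites the p300 fold over background had 1 broad mode near the limit. Over all bins of the genome 5.14% reached the same p300 limit, against 55.9% of the Hdac3 d3 sites, a share that the rule itself used and that is given as a description. The lowest member value was 2.00-fold, reached for example at chr1:26721001-26722000 with 1 p300 tag in OPCs and 6 at d3, at chr2:215452001-215453000 with 2 and 4, and at chr6:22444001-22445000 with 3 and 4. Just outside the limit were chr10:76444001-76445000 with 5 p300 tags in OPCs and 7 at d3 (1.97-fold), chr3:104955001-104956000 with 5 and 6 (1.96-fold) and chr5:165092001-165093000 with 4 and 6 (1.96-fold). Sites on either side of the limit were thus close in p300 fold. Among the members the p300 fold had a median of 2.82, with quartiles at 2.40 and 3.66 and a highest value of 26.1. By the rule used to call Hdac3 sites, 82 of the 467 would also have been called on the summed p300 tags (17.6%, 14.2 to 21.3%), against 0.0166% of all bins. The members were chosen on the same summed tags, so nothing is read from this share.

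**Figure D1:**
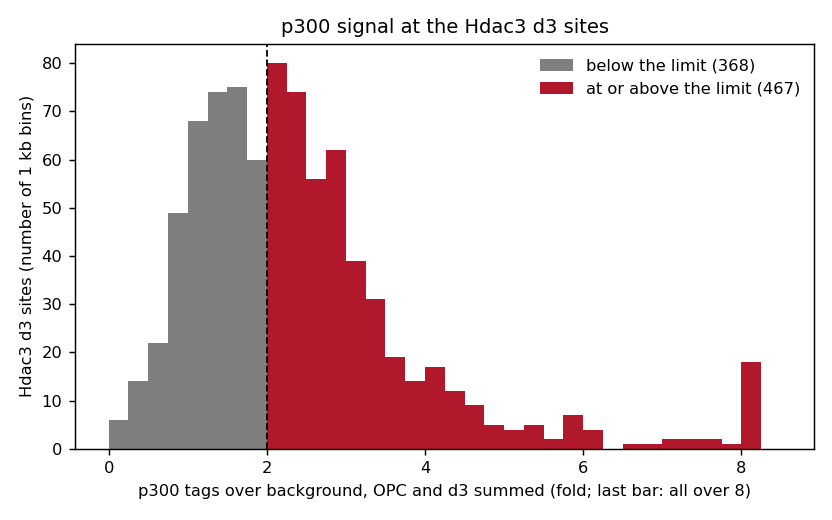
Number of Hdac3 d3 sites (vertical axis) by p300 fold over background with OPC and d3 tags summed (horizontal axis, steps of 0.25, last bar for all 18 sites over 8-fold). The dashed line is the 2-fold limit that splits the 835 sites into 368 below (grey) and 467 at or above it (red), and it lies inside a single broad mode.

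The sites with p300 signal were on average also enriched for Hdac3 in OPCs, in the library that did not choose them. Hdac3 OPC tags over all 467 sites were 3.23-fold over background (3.11 to 3.35), with a median site at 1.97-fold. At least 2-fold Hdac3 in OPCs was seen at 232 sites (49.7%, 45.1 to 54.3%), against 9.34% of all bins. By contrast, the 368 Hdac3 d3 sites below the p300 limit were 1.56-fold over background for Hdac3 in OPCs (1.47 to 1.66), with a median of 1.404-fold and 104 sites at 2-fold or more (28.3%, 23.7 to 33.2%). The ratio of the summed folds was 2.07 (1.93 to 2.23), and it was 1.19 (1.06 to 1.34) when taken only over the sites with the fewest reads of low score, a measure described below. In the d3 library, which chose both sets, the same ratio was 1.19 (1.15 to 1.23), with 5.57-fold at sites with p300 signal and 4.67-fold at those without. The OPC library called 55 of the sites with p300 signal as Hdac3 sites (11.8%, 9.0 to 15.1%) and 3 of those without (0.815%, 0.168 to 2.36%), where 0.0041% of all bins were called.

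The Hdac3 level in OPCs followed the amount of p300 at a site in steps. It was 1.25-fold (1.08 to 1.44) at the 91 Hdac3 d3 sites where p300 was below its background, 1.58-fold at 1 to 1.5 times the p300 background, and 1.73-fold (1.57 to 1.90) just below the limit. Above the limit it was 1.80-fold (1.64 to 1.96) at the 154 members with 2 to 2.5-fold p300, 2.03-fold at 2.5 to 3-fold and 2.30-fold (2.09 to 2.52) at 3 to 4-fold. The 61 members with 4 to 6-fold p300 had 4.12-fold Hdac3 in OPCs (3.79 to 4.48), and the 31 members above that had 14.9-fold (14.0 to 15.9). Between neighbouring steps on either side of the limit the intervals overlapped, so no jump in Hdac3 was seen at the p300 limit itself. Hdac3 at d3 stayed between 4.54-fold and 4.81-fold in each step below 4-fold p300, then reached 5.37-fold and 15.5-fold in the last steps. The Spearman rank correlation of Hdac3 OPC fold with p300 fold over the 467 members was 0.39, a description over sites that share libraries, depth and read mappability. The share of reads of low score was also higher in the upper steps, and the steps without the sites richest in such reads are given below.

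**Figure D2:**
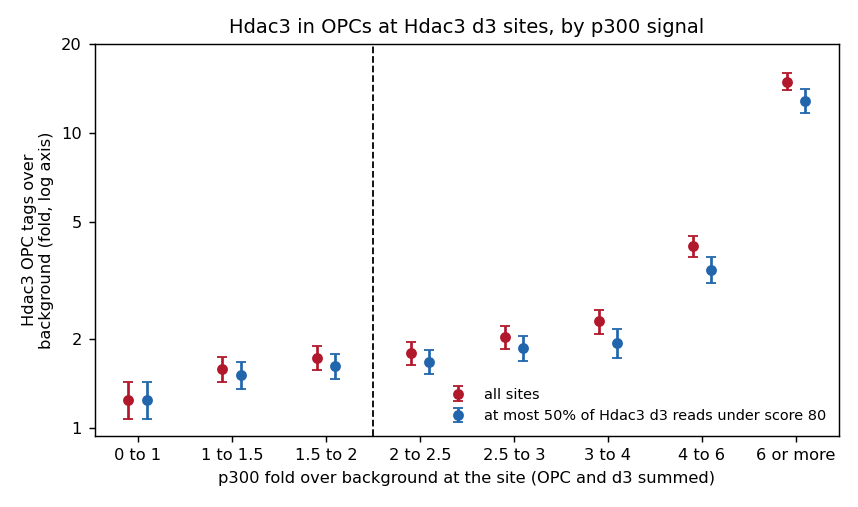
Summed Hdac3 OPC tags over summed background (vertical axis, fold, log scale) for the 835 Hdac3 d3 sites in 8 classes of p300 fold (horizontal axis), with exact Poisson 95% intervals for counting error. Red points are all sites and blue points those with at most 50% of Hdac3 d3 reads under a score of 80; sites with p300 signal are right of the dashed line, and the red points run from 1.25-fold to 14.9-fold.

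Reads of low score moved with these values. The score, read here as a mapping quality because its scale is undocumented, was under 80 for 24.9% of all Hdac3 d3 reads on chromosomes 1 to 20. At sites with p300 signal the share was 38.9% (38.2 to 39.6%), and at sites without it 18.4% (17.5 to 19.2%). Most of this sat in a minority of sites, since the median site with p300 signal had 11.8% of such reads, but 55 of the 467 (11.8%) had over 50%. Among the 368 other sites 6 had over 50% (1.63%). The part that poorly placed reads have in the results was not tested, but each result can be given without those sites. At the 412 members with at most 50% of low-score reads the Hdac3 OPC fold was 2.52 (2.41 to 2.63), against 1.49 (1.396 to 1.58) at 362 such sites without p300 signal, a ratio of 1.69 (1.57 to 1.83). With a maximum of 20% the values were 2.05-fold (1.94 to 2.17) at 347 sites, 1.41-fold (1.32 to 1.51) at 325 sites and a ratio of 1.45 (1.33 to 1.59). With a maximum of 10% they were 1.68-fold (1.54 to 1.82) at 204 sites, 1.405-fold (1.29 to 1.53) at 208 sites and a ratio of 1.19 (1.06 to 1.34). The difference was thus smaller with each stricter maximum, and at 10% the lower limit of the ratio was close to 1. Taken by separate class, the ratio was 1.80 (1.57 to 2.07) at 10 to 20% of low-score reads and 1.99 (1.67 to 2.39) at 20 to 50%. Above 50%, with 55 members and 6 other sites, it was 1.25 (0.967 to 1.64), so it did not rise steadily with the share. By step of p300, the low-score share was 8.76% below the p300 background and 19.8 to 21.9% from there to 2.5-fold. Above that it was 25.2%, 37.5%, 52.4% and 54.7%. At sites of at most 50%, the member steps up to 4-fold p300 overlapped in Hdac3 OPC fold. They had 1.68 (1.52 to 1.84), 1.87 (1.69 to 2.06) and 1.94 (1.73 to 2.17). The last steps still had 3.43 (3.09 to 3.79) and 12.9 (11.7 to 14.1).

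The p300 signal was about equal at both stages. Summed over the members and scaled to library totals, p300 had a d3 to OPC ratio of 1.01 (0.958 to 1.06). At d3 the p300 tags were 3.47-fold over background (3.36 to 3.58) and in OPCs 3.42-fold (3.30 to 3.55). The rule used the sum of the stages and not their balance. At single sites the 2-fold level was reached at both stages in 261 members, in OPCs alone in 80, at d3 alone in 125 and at neither stage alone in 1. With medians of 5 and 6 tags such a split at single sites is mostly within counting error, and of the 62 members with at least 20 p300 tags 1 had an interval of the ratio wholly above 1 (1.61%) and 0 wholly below. Over all bins with that many tags 6.96% were higher and 2.17% lower at d3.

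Choosing on 1 stage and reading the other gave a measure of p300 that did not choose its own sites. At the 402 Hdac3 d3 sites with at least 2-fold p300 in OPCs, p300 at d3 was 3.13-fold over background (3.02 to 3.24), and 261 of them reached 2-fold at d3 (64.9%, 60.0 to 69.6%). At the other 433 sites p300 at d3 was 1.91-fold (1.83 to 2.00), with 44.8% at 2-fold (40.1 to 49.6%). With the stages exchanged, p300 in OPCs was 2.95-fold (2.83 to 3.07) at 455 sites chosen on d3 and 1.88-fold (1.78 to 1.99) at the other 380. For comparison, 8.33% of all bins reached 2-fold p300 at d3 and 7.72% in OPCs. Sites chosen on 1 stage were thus higher in the other stage beyond counting error, and sites not chosen were on average still above background there. With sites of at most 50% low-score reads the chosen sets were 2.81-fold (2.70 to 2.93) and 2.63-fold (2.52 to 2.75). Over the 835 sites the rank correlation of p300 fold between the stages was 0.34. Over the 467 members it was 0.0054, where the limit on the sum leaves out sites that are low at both stages and so lowers it.

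Hdac3 was compared between the stages, the comparison named in the design of the study. At sites with p300 signal the Hdac3 tags, scaled to library totals, had a d3 to OPC ratio of 1.68 (1.61 to 1.75). All these sites were called on their d3 tags, which favours a ratio above 1, and a difference in how well the 2 immunoprecipitations enriched cannot be told apart from one in binding. The sites without p300 signal, chosen on d3 tags in the same way, had a ratio of 2.89 (2.70 to 3.09). The lower ratio at sites with p300 signal restates their higher Hdac3 in OPCs. The kept Hdac3 d3 tags enter both this ratio and the share of low-score reads, which favours a lower ratio at a higher share. How much this adds was not tested. The Hdac3 ratio was lower where the share of low-score reads was higher. It was 2.91 (2.67 to 3.18) at the 204 members with up to 10% of such reads, 2.12 (1.95 to 2.31) at 143 members with 10 to 20%, 1.24 (1.14 to 1.36) at 65 with 20 to 50% and 0.953 (0.882 to 1.03) at 55 above that. In the first of these classes, sites without p300 signal had a ratio of 3.18 (2.90 to 3.49), an interval that overlapped that of the members. At 10 to 20% their ratio was 3.12 (2.77 to 3.53) and at 20 to 50% it was 2.17 (1.82 to 2.61), both intervals above those of the members. Above 50% the 6 sites without p300 signal had 1.03 (0.760 to 1.42), which again overlapped. For p300 the ratio lay between 1 and 1.01 in all 4 classes of members. Among the 93 members with at least 30 Hdac3 tags, 16 had an interval wholly above 1 (17.2%) and 2 wholly below (2.15%), against 13.4% and 3.96% of all bins with that many tags. Of the 22 sites without p300 signal with that many tags, 10 had an interval wholly above 1 (45.5%) and 0 wholly below. All bins with that many tags numbered 202, of which 27 had an interval wholly above 1. These bins include the members and the sites without p300 signal. Most of the 27 were thus sites called on their d3 tags, so nothing is read from how near the members' share lies to that of all bins.

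**Figure D3:**
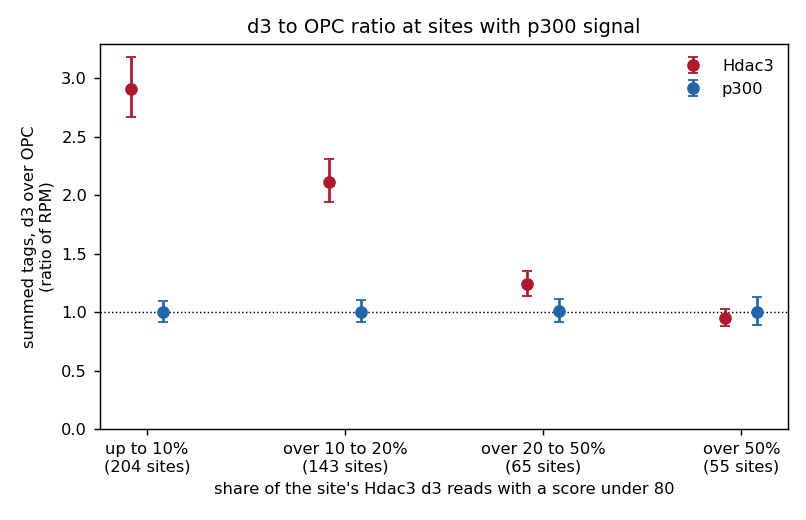
Ratio of summed tags, scaled to library totals, at d3 to those in OPCs (vertical axis) at the 467 sites with p300 signal, in 4 classes of the share of Hdac3 d3 reads with a score under 80 (horizontal axis), with exact binomial 95% intervals for counting error. Hdac3 (red) runs from 2.91 to 0.953 across the classes, and p300 (blue) stays between 1 and 1.01. Hdac3 d3 tags enter both the classes and the Hdac3 ratio, but not the p300 ratio.

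**Figure D4:**
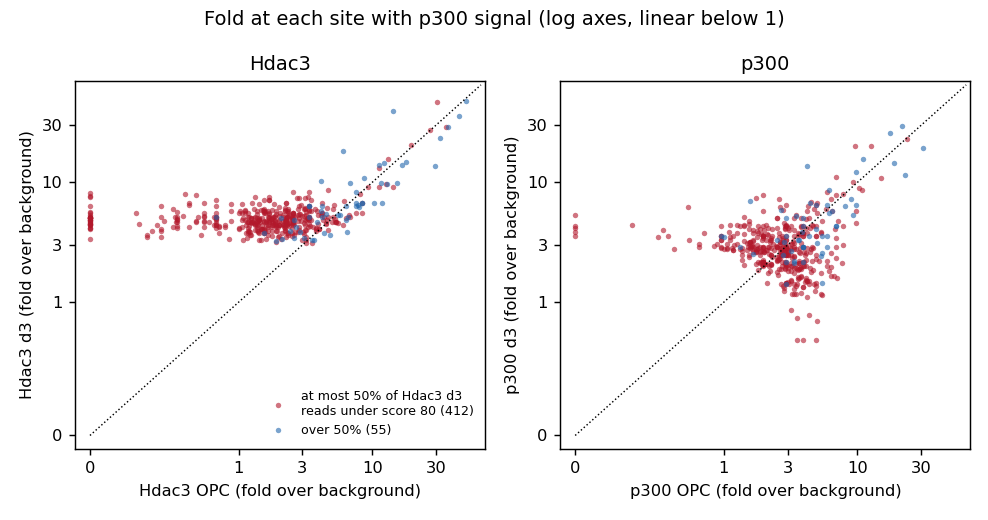
Fold over background at each of the 467 sites with p300 signal in OPCs (horizontal axes) and at d3 (vertical axes) for Hdac3 (left) and p300 (right), on log axes that are linear below 1, with the line of equal fold dotted. The 55 sites with over 50% low-score reads (blue) lie near the line for Hdac3, and most of the 412 others (red) lie above it; the edge of the red cloud at lower left for p300 is set by the limit on the sum.

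In the other 3 libraries the tags were densest where the Hdac3 d3 tags lay. Each site was centred on the median of its Hdac3 d3 tags, which fixes the Hdac3 d3 peak by construction, and tags were counted in steps of 100 bp out to 5 kb. Within 200 bp of the centre Hdac3 OPC tags stood at 8.57 times the genome mean at sites with p300 signal, p300 OPC tags at 8.74 times and p300 d3 tags at 8.55 times, with 15.1 times for Hdac3 d3. Between 4 and 5 kb away the same libraries stood at 1.18, 1.24, 1.25 and 1.18 times. The highest 100 bp step was one next to the centre in Hdac3 OPC and both p300 libraries. The centre was thus 7.26 times as dense as the outer part for Hdac3 OPC (6.76 to 7.79), 7.06 times for p300 OPC (6.55 to 7.61) and 6.85 times for p300 d3 (6.42 to 7.30). For p300 these values include the height of the bins, which the rule used. A measure within the chosen bin, added after the values were seen, set the 200 bp on either side of the centre against the rest of the same 1 kb. By it the centre was 2.57 times as dense for Hdac3 OPC (2.38 to 2.77), 2.16 times for p300 OPC (2.00 to 2.33) and 2.01 times for p300 d3 (1.88 to 2.14). At sites without p300 signal the same ratios were 1.56 (1.38 to 1.76), 1.21 (1.05 to 1.397) and 1.46 (1.30 to 1.64). Against the outer part, the centre of the Hdac3 OPC profile at sites without p300 signal was 2.38 times as dense (2.14 to 2.63). Without the sites rich in low-score reads the members' values against the outer part were 5.30 (4.88 to 5.75) for Hdac3 OPC, 6.02 (5.54 to 6.53) for p300 OPC and 5.97 (5.57 to 6.41) for p300 d3, and those within the bin 2.21 (2.02 to 2.42), 1.89 (1.74 to 2.06) and 1.77 (1.65 to 1.90). With the same limit, sites without p300 signal had 2.18 (1.95 to 2.42) for Hdac3 OPC against the outer part. Within the bin they had 1.44 (1.27 to 1.64), 1.19 (1.03 to 1.38) and 1.43 (1.27 to 1.61) in the same order.

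Tags were also compared by strand. Within 500 bp of the centre the medians of unmoved tags were 113 bp apart for Hdac3 d3, 80 bp for p300 OPC, 67 bp for p300 d3 and 28 bp for Hdac3 OPC at sites with p300 signal. At sites without p300 signal the same differences were 158, 35.5, 48 and 28.5 bp. The plus median came first in each case. Moving tags before counting favours this order in the libraries that chose the sites. No interval and no other bins were set beside these differences, so nothing is read from their sizes.

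**Figure D5:**
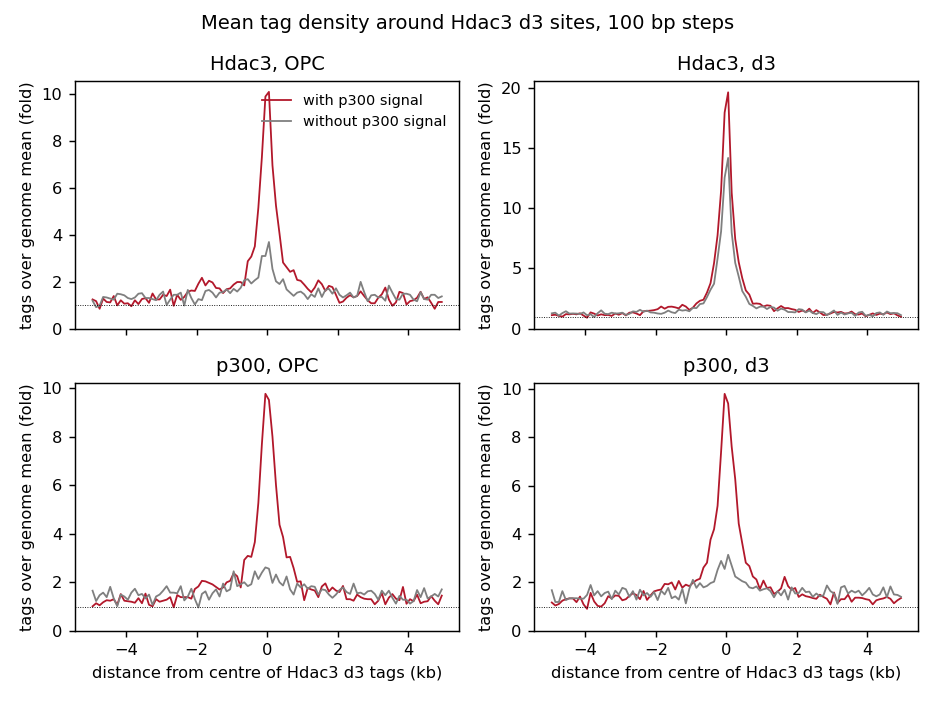
Mean tag density in 100 bp steps (vertical axes, fold over the genome mean of the library) by distance from the centre of the Hdac3 d3 tags (horizontal axes, kb) in each of the 4 libraries. Red lines are the 467 sites with p300 signal and grey lines the 368 without; the Hdac3 OPC library, which chose no site, reaches 10.1 times the genome mean at the former and 3.70 times at the latter.

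The sites picked for the highest Hdac3 d3, summed p300 or Hdac3 OPC fold were high in all 4 libraries. All 4 libraries took part in picking them, so this is a description. The highest Hdac3 d3 fold was at chr13:36740001-36741000, with 110 Hdac3 tags in OPCs, 232 at d3, 19 p300 tags in OPCs and 23 at d3, which were 50-fold, 47.3-fold, 18.6-fold and 14.4-fold over background. It also had the highest Hdac3 OPC fold of the 467. At chr5:114470001-114471000 the tags were 36, 117, 24 and 32 in the same order, and the folds 30.4, 46.6, 23.5 and 23.0. This site stood apart from the other strong ones by its low share of low-score reads, 29.5% at Hdac3 d3. The highest p300 fold, 26.1 over both stages, was at chr3:144001-145000 with 58, 89, 22 and 41 tags, of which the Hdac3 d3 reads were 73.0% low-score before the score limit. At chr1:145514001-145515000 the tags were 99, 159, 59 and 76, and p300 was 31.1-fold in OPCs, the highest value for that library. The remaining leading sites were chr5:2704001-2705000 (49, 96, 24 and 36 tags), chr8:120171001-120172000 (20, 108, 13 and 33) and chr5:155405001-155406000 (50, 84, 16 and 32), with low-score shares of 57.1%, 58.8% and 42.9%. Of these 7 sites 5 therefore drew over 50% of their Hdac3 d3 reads from placements of low score. Over the whole set, 24 members were called in all 4 libraries and 388 in no library but Hdac3 d3. Of the 368 sites without p300 signal, 0 were called in all 4 libraries and 365 in no library but Hdac3 d3. No share over all bins is given for these counts. The p300 OPC library called 37 members (7.92%) and p300 d3 called 48 (10.3%), where 0.00477% and 0.00704% of all bins were called. The rule had used the sum of these p300 libraries, so nothing is read from those shares or from the counts before them.

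Among sites of at most 20% low-score reads, a limit chosen after the values were seen, the leading ones were weaker. At chr7:101749001-101750000 there were 68 Hdac3 tags in OPCs, 204 at d3, 26 p300 tags in OPCs and 68 at d3, or 13.1-fold, 15.7-fold, 9.63-fold and 20.0-fold over background. Both proteins were higher at d3 there, Hdac3 1.41 times (1.07 to 1.89) and p300 1.91 times (1.20 to 3.13). It was the 1 member with at least 20 p300 tags whose p300 ratio had an interval wholly above 1. At chr19:12445001-12446000 the tags were 50, 120, 13 and 26, and the folds 26.9, 27.4, 9.29 and 10.0. At chr17:4284001-4285000 they were 29, 49, 13 and 19, or 8.06-fold, 8.03-fold, 6.50-fold and 5.76-fold. These 3 sites were called in all 4 libraries. Weaker but also well placed was chr9:8269001-8270000, with 9, 15, 10 and 8 tags and 7.46-fold p300 over both stages. Another, chr17:38810001-38811000, had 3 and 21 Hdac3 tags with 7 and 9 p300 tags. Its p300 folds were 5.83 in OPCs and 6 at d3, and its Hdac3 folds 2.54 and 8.37. The interval of the d3 to OPC ratio included 1 for Hdac3 (3.30, 0.985 to 17.3) and for p300 (0.941, 0.312 to 2.97). Also among the 5 highest in Hdac3 d3 fold under this limit were chr11:33804001-33805000 and chr6:112035001-112036000, neither called in another library. The former had 4 and 21 Hdac3 tags with 3 and 2 p300 tags, and at d3 8.37-fold Hdac3 but 1.44-fold p300. The latter had 8.11-fold Hdac3 at d3 and 0 Hdac3 tags in OPCs.

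The members with the highest Hdac3 ratio of d3 to OPC had 0 to 3 Hdac3 tags in OPCs, which ranking on this ratio favours. Their p300 folds over both stages, 2.04 to 3.79, lay on either side of the member median of 2.82. At chr6:112035001-112036000 there were 0 Hdac3 tags in OPCs and 30 at d3, and 5 and 6 p300 tags. The Hdac3 ratio there had an exact lower limit of 3.60, and it was 4.71 when set against a floor of 3 tags in OPCs. At chr8:121089001-121090000 the Hdac3 tags were 1 and 29 (ratio 13.7, 2.27 to 558) and the p300 tags 2 and 5. The wide interval shows how little 1 tag can say about the size. At chr18:75468001-75469000 the Hdac3 tags were 2 and 33 (7.77, 1.99 to 66.9), and at chr6:22276001-22277000 they were 2 and 31 (7.30, 1.86 to 63.0). The fifth was chr16:54570001-54571000 with 3 and 27 Hdac3 tags (4.24, 1.31 to 21.8) and 6 and 4 p300 tags. Low-score shares at these 5 sites were 0 to 17.1%. With 7 to 11 p300 tags over both stages at each, under the minimum of 20 set for a p300 ratio, the balance of p300 between the stages could not be read at these sites.

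The sites with the lowest Hdac3 ratios had higher low-score shares than those above, but the kept Hdac3 d3 tags enter both values. They were chr14:4542001-4543000 with 24 Hdac3 tags in OPCs and 27 at d3 (ratio 0.530, 0.294 to 0.960), chr3:98208001-98209000 with 20 and 24 (0.565, 0.299 to 1.08) and chr13:20986001-20987000 with 14 and 17 (0.572, 0.265 to 1.25). Next came chr16:27718001-27719000 with 13 and 17 (0.616, 0.282 to 1.38) and chr4:75836001-75837000 with 21 and 28 (0.628, 0.344 to 1.16). The interval excluded 1 at the first of these and included it at the other 4. Low-score shares were 68.6 to 82.5% at the first 4 and 24.3% at the site on chromosome 4, where p300 was 6.36-fold in OPCs and 7.33-fold at d3.

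No p300 ratio among the 5 highest and 5 lowest members picked by rule lay outside counting error. The highest were chr15:22308001-22309000 with 4 p300 tags in OPCs and 16 at d3 (2.93, 0.944 to 12.0), chr2:120706001-120707000 with 5 and 16 (2.34, 0.819 to 8.17) and chr1:212693001-212694000 with 6 and 17 (2.07, 0.780 to 6.42). They were followed by chr16:20577001-20578000 with 7 and 19 (1.99, 0.799 to 5.59) and chr3:56041001-56042000 with 6 and 16 (1.95, 0.725 to 6.09). All but chr16:20577001-20578000, where 47.9% of Hdac3 d3 reads were low-score, had shares under 20%. The lowest were chr17:17492001-17493000 with 12 and 8 p300 tags (0.488, 0.173 to 1.30), chr14:56507001-56508000 with 23 and 16 (0.509, 0.251 to 1.01) and chr16:27611001-27612000 with 12 and 9 (0.549, 0.204 to 1.42). The last were chr10:54762001-54763000 with 13 and 10 (0.563, 0.221 to 1.39) and chr4:7339001-7340000 with 14 and 11 (0.575, 0.236 to 1.36).

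The members were scattered over the genome, with a few close groups. Each of the 20 autosomes held between 8 (chromosome 19) and 53 (chromosome 2), or 1.33 to 2.56 per 10 Mb. The share of Hdac3 d3 sites that had p300 signal ran from 38.1% on chromosome 19 (8 of 21) to 72.4% on chromosome 17 (21 of 29), and no test of this spread was made. The median distance to the nearest other member was 1402 kb, but 30 members lay within 10 kb of another (6.42%). Of the 368 sites without p300 signal 2 lay within 10 kb of another of their own kind (0.543%). Adjacent members formed 9 runs of 2 bins, which leaves 458 separate sites.

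These runs were chr5:6559001-6561000, chr7:101749001-101751000, chr9:1065001-1067000, chr14:4459001-4461000, chr14:4542001-4544000, chr14:56506001-56508000, chr16:20577001-20579000, chr17:4283001-4285000 and chr17:17498001-17500000. The run with the highest tag counts for Hdac3 and for p300 was that on chromosome 7. It held 115 Hdac3 tags in OPCs, 316 at d3, 48 p300 tags in OPCs and 94 at d3 over its 2 kb. These were 9.13-fold, 8.93-fold, 8.14-fold and 8.55-fold over background. In the other 8 runs Hdac3 was 2.46-fold to 8.67-fold in OPCs and 4.13-fold to 8.85-fold at d3, all below the run on chromosome 7. For p300 they were 3.13-fold to 9.34-fold in OPCs and 2.87-fold to 9.46-fold at d3. Higher than on chromosome 7 were chr14:56506001-56508000 in OPCs (9.34-fold) and chr16:20577001-20579000 at d3 (9.46-fold). The share of low-score Hdac3 d3 reads over the 9 runs was 15.5 to 77.0%, and it was over 50% in the 3 on chromosome 14. Outside the sites themselves the surroundings were little above average: the median 50 kb mean was 1.23 times the genome mean for Hdac3 at either stage, and 1.28 and 1.26 times for p300 in OPCs and at d3.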

How the data were processed

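The authors deposited 1 list of aligned reads per library, in rn4 coordinates, with a start, end, strand and score for each read. The score in the deposited files is a whole number from 8 to 100 on an undocumented scale. The submitters' processing notes name the build rn4 and MACS 1.4.0 but no role for either. Aligner and read filters were not given in the sources used here. Repeated 5' ends on 1 strand numbered 0 in every library, so the tags a narrow site can hold are capped.

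Reads of score 80 or more on chromosomes 1 to 20 had their 5' ends moved 100 bp along their strand and were counted in 1 kb bins. This used Python 3.11.15, numpy 2.4.6, scipy 1.17.1 and pandas 2.3.3. Folds are tags over background, and summed folds are summed tags over summed backgrounds, with exact Poisson intervals. Ratios have conditional binomial intervals and shares Clopper-Pearson intervals. Calling and intervals were tested on simulated data.

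The members, rules and settings were chosen with earlier results of these data known. Named were the 5 members highest for Hdac3 d3 fold, p300 fold and Hdac3 OPC fold, the 5 highest and lowest d3 to OPC ratios (at least 30 Hdac3 or 20 p300 tags), 3 sites on each side of the p300 limit and all runs of adjacent members. Limits of 50%, 20% and 10% on low-score reads were also applied.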

Additional observations from a re-analysis of the deposited data

Results flagged for a closer look

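Chromosome X lay outside the chromosomes of the rule. The same rule, with the mean taken over the bins of chromosome X, called 25 Hdac3 d3 sites there, and 17 of them reached the p300 limit (68.0%, 46.5 to 85.1%) against 7.58% of all bins of chromosome X. The rule does not cover this signal, which is why it is listed here, and the share on chromosomes 1 to 20, 55.9%, lies inside the interval. Hdac3 in OPCs was 5.28-fold over background (4.30 to 6.42) at these 17 and 2.62-fold (1.60 to 4.05) at the other 8.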

How the results depend on the processing

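The p300 ratio of d3 to OPC at the members stayed between 0.980 and 1.04 under the 17 alternatives, on either side of 1 and within its counting error. The other summed folds and ratios stayed above 1 in each alternative run for them, but in most of these moved by more than their counting error. Another scaling and ratios of folds over local background were run for the d3 to OPC ratios only. The cause of these shifts was not tested. Numbers of members outside 1.5 times 467 were 705 with no score minimum, 155 at a Poisson level of 1e-08, 195 at a p300 limit of 3-fold, 2512 with background set by the genome mean alone, 204 without sites of over 10% low-score reads and 150 with Hdac3 d3 thinned to the Hdac3 OPC total for calling. The following give in order the Hdac3 OPC fold at members, its ratio to sites without p300 signal, the Hdac3 ratio of d3 to OPC, the p300 d3 fold at sites chosen on p300 OPC and the p300 OPC fold at sites chosen on p300 d3. They were 4.37, 2.85, 1.28, 3.81 and 3.69 with a score minimum of 50, and 5.85, 3.10, 1.06, 5.07 and 4.999 with none. With 500 bp bins they were 4.15, 2.40, 1.76, 3.55 and 3.54. At a p300 limit of 3-fold they were 4.96, 2.90, 1.30, 3.80 and 3.86. With the genome mean as background they were 3.56, 1.89, 1.84, 4.38 and 4.02. With thinned Hdac3 d3 they were 5.15, 3.09, 1.32, 4.19 and 3.89. Without sites of over 50% low-score reads they were 2.52, 1.69, 2.04, 2.81 and 2.63, and without bins at 10 times the mean in all 4 libraries 2.39, 1.53, 2.04, 2.55 and 2.45. Among alternatives added after seeing the data they were 2.05, 1.45, 2.49, 2.37 and 2.23 without sites of over 20% low-score reads, 1.68, 1.19, 2.91, 2.17 and 2.06 with that limit at 10%, and 2.65, 1.70, 1.84, 2.77 and 2.62 without the 10 members of most Hdac3 d3 tags. At a Poisson level of 1e-08 the first was 5.22, the Hdac3 ratio 1.34 and the p300 folds 4.41 and 4.30. With bins started at 500 bp the values that moved were 3.65, 2.24, 1.59 and, for p300 OPC, 3.15. With ends not moved they were 3.50, 2.30 and 1.58, and with scores of 100 only the Hdac3 ratio was 1.78. The Hdac3 OPC folds of the 30 named members moved beyond their counting intervals in 24 of 150 checks. Those folds that crossed 1 did so within their counting intervals. No paired analysis was possible because each group held 1 library. The depth of 1 to 3 tags per average bin limits statements on single sites.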

Other observations

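A few members accounted for much of the Hdac3 OPC signal. The 10 with the most Hdac3 d3 tags held 20.7% of the members' Hdac3 OPC tags, 13.1% of their Hdac3 d3 tags, 11.3% of their p300 OPC tags and 12.0% of their p300 d3 tags. At the other end, 31 members held 0 Hdac3 OPC tags and 96 were below the Hdac3 OPC background (20.6%, 17.0 to 24.5%), while 129 of the 368 sites without p300 signal were below it (35.1%, 30.2 to 40.2%). For p300, 5 members held 0 tags in OPCs and 0 members held 0 tags at d3. The median 50 kb mean of p300 d3 was 1.26 times the genome mean around sites with p300 signal and 1.35 times around those without.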
